A study of Gallus gallus with 9 samples.

Results

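ATF4 and a small set of genes that it is known to control in stressed cells were followed across 9 RNA-seq libraries from the chicken, Gallus gallus. The cells were primordial germ cells (PGCs), which later give rise to eggs or sperm. A set of 8 genes was named by symbol (ATF4, ATF3, TRIB3, CHAC1, STC2, CEBPB, VLDLR and DDIT4), and 6 of them matched a symbol in the deposited tables, out of 24356 genes counted in all. TRIB3 and DDIT4 were not analysed here. All 6 matched genes passed the filter on low counts. The members were named by gene and not picked by a threshold, but the set was put together with earlier results of these libraries known.

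The series held 3 groups of 3 libraries of poly(A) RNA. Controls were PGCs of wild-type genotype that carried a control vector, and the other groups were labelled Lin28A knockout and Lin28B knockout. LIN28A and LIN28B bind RNA and are best known as inhibitors of let-7 microRNA processing. The labels do not say whether a group is 1 clone, how the genes were disrupted, or whether its libraries are separate cultures. The p-values therefore measure library-to-library spread, which may be technical.

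In the integrated stress response, kinases that sense amino acid shortage, misfolded protein, haem shortage or viral RNA phosphorylate the translation initiation factor eIF2. General translation then slows, while upstream open reading frames in the ATF4 mRNA let ATF4 protein be made in greater amount. ATF4 pairs with other bZIP factors on DNA and turns on genes for amino acid synthesis and uptake, tRNA charging and redox balance. Control of ATF4 lies partly in translation, which mRNA counts do not show.

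Libraries held 27.7 to 32.2 M counts. LIN28A transcript was 160, 144 and 244 CPM (read counts scaled to library size, here by TMM) in control replicates 1, 2 and 3, and 117, 109 and 17.7 CPM in LIN28A knockout. LIN28B transcript was 52.2, 45.3 and 61.9 CPM in control and 55.0, 59.6 and 50.3 CPM in the libraries labelled LIN28B knockout. It was thus not lower there, and every direction given for that group rests on the label. In LIN28A knockout LIN28B transcript was 40.3, 41.7 and 38.0 CPM, below every control library (log2 difference −0.41 ± 0.14 SE, edgeR adjusted p 0.327). LIN28A transcript was 173, 179 and 242 CPM in the libraries labelled LIN28B knockout. The titles and genotype labels of these libraries name Lin28B, while their descriptions name the result table of the other knockout. In each group replicates 1 and 2 lay close together and replicate 3 stood apart: the root mean square difference of log2 CPM over 10151 genes was 0.14 between LIN28A knockout replicates 1 and 2 and 0.73 between replicates 1 and 3. The PGC label was matched by 12 tested germ cell markers, with DAZL at 1804 to 2102 CPM and DDX4 at 595 to 636 CPM in control.

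ATF4 and the targets ATF3, CEBPB, CHAC1 and STC2 had lower levels in all 3 libraries labelled LIN28B knockout than in any control library. VLDLR showed another pattern: its levels there overlapped with control, and all 3 LIN28A knockout libraries lay above every other library. The mean of each of the 6 was highest in LIN28A knockout. None of the 6 passed edgeR's adjusted test in any comparison, in the fit of all 9 libraries on group. DESeq2 called VLDLR, higher, in LIN28A knockout against control, where it called 2.11% of its genes. In LIN28B knockout against control it called STC2, lower, against 0.774% of its genes. Between the knockouts it called 5 members, against 5.51%. A blocked fit, which pairs libraries by replicate number, called STC2 in the libraries labelled LIN28B knockout, against 0.155% of tested genes. In bulk RNA, fewer cells that express a gene and less RNA per cell cannot be told apart.

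ATF4 (ENSGALG00000012135), the transcription factor at the head of the response, was at 515, 512 and 541 CPM in control replicates 1, 2 and 3. In LIN28A knockout it was at 524, 526 and 614 CPM, and in the libraries labelled LIN28B knockout at 308, 297 and 455 CPM. All 3 libraries labelled LIN28B knockout lay below all 6 others, with replicate 3 nearest to them. The group means were 522 ± 16.0 CPM (SD, n = 3) in control, 555 ± 51.6 CPM in LIN28A knockout and 353 ± 87.8 CPM in the libraries labelled LIN28B knockout. The fitted log2 difference from control was −0.56 ± 0.16 (SE) in the libraries labelled LIN28B knockout, with a 95% interval from −0.92 to −0.21 and an edgeR adjusted p of 0.457. In LIN28A knockout the difference from control was 0.09 ± 0.16, with an interval from −0.27 to 0.44 and an edgeR adjusted p of 0.887. The order of levels was thus LIN28A knockout, control and LIN28B knockout, and the first pair differed by less than the spread between libraries.

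ATF3 (ENSGALG00000049422), a bZIP factor that ATF4 induces and that pairs with other stress factors, was at 20.7, 24.5 and 29.2 CPM in control. LIN28A knockout libraries held 20.8, 25.0 and 98.0 CPM, against 9.28, 7.26 and 14.0 CPM in the libraries labelled LIN28B knockout. LIN28A knockout replicates 1 and 2 fell within the range of control, replicate 3 lay far above every other library, and the libraries labelled LIN28B knockout were the 3 lowest. Mean levels were 24.8 ± 4.27 CPM in control, 48.0 ± 43.4 CPM in LIN28A knockout and 10.2 ± 3.44 CPM in the libraries labelled LIN28B knockout (SD, n = 3 each). The log2 difference from control was −1.28 ± 0.53 (SE) in the libraries labelled LIN28B knockout (edgeR adjusted p 0.554) and 0.95 ± 0.52 in LIN28A knockout (edgeR adjusted p 0.566).

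CEBPB (ENSGALG00000008014), a C/EBP family factor that can pair with ATF4, followed ATF3 closely. Its levels were 46.7, 49.7 and 53.4 CPM in control, 55.2, 49.6 and 125 CPM in LIN28A knockout and 18.6, 15.5 and 29.3 CPM in the libraries labelled LIN28B knockout. Again replicate 3 of LIN28A knockout was the single high library, and the libraries labelled LIN28B knockout did not overlap with the other groups. Means were 49.9 ± 3.34, 76.7 ± 42.2 and 21.1 ± 7.26 CPM in the same order (SD, n = 3). Against control the log2 difference was −1.24 ± 0.35 (SE) in the libraries labelled LIN28B knockout (edgeR adjusted p 0.457) and 0.62 ± 0.34 in LIN28A knockout (edgeR adjusted p 0.575).

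CHAC1 (ENSGALG00000027874), an enzyme that breaks down glutathione, had the lowest levels relative to control. Control libraries held 58.3, 68.1 and 62.9 CPM, and LIN28A knockout libraries 59.5, 53.0 and 150 CPM. The libraries labelled LIN28B knockout held 6.71, 7.62 and 34.4 CPM, which is 207, 213 and 1030 counts. Within that group replicate 3 was 4.80-fold above the mean of replicates 1 and 2, yet still below all control libraries. Against the control of the same number, the log2 difference was −3.11, −3.15 and −0.87 in replicates 1, 2 and 3. Means were 63.1 ± 4.86 CPM in control, 87.6 ± 54.3 CPM in LIN28A knockout and 16.2 ± 15.7 CPM in the libraries labelled LIN28B knockout (SD, n = 3). The fitted difference from control was −1.96 ± 0.61 (SE; 95% interval −3.33 to −0.59; edgeR adjusted p 0.476) in the libraries labelled LIN28B knockout and 0.47 ± 0.59 (edgeR adjusted p 0.831) in LIN28A knockout.

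STC2 (ENSGALG00000002893), a secreted glycoprotein induced by endoplasmic reticulum stress in mammalian cells, was at 108, 108 and 162 CPM in control. LIN28A knockout libraries held 128, 121 and 198 CPM, and the libraries labelled LIN28B knockout 41.5, 31.1 and 84.7 CPM. Replicate 3 was the highest library within each of the 3 groups. Means were 126 ± 31.2, 149 ± 42.7 and 52.4 ± 28.4 CPM (SD, n = 3) in control, LIN28A knockout and the libraries labelled LIN28B knockout. Each LIN28A knockout library lay above the control of the same number, by 0.24, 0.17 and 0.29 on the log2 scale, and each library labelled LIN28B knockout lay below it, at −1.38, −1.79 and −0.94. The fitted differences from control were 0.24 ± 0.35 (SE; edgeR adjusted p 0.856) in LIN28A knockout and −1.27 ± 0.35 (edgeR adjusted p 0.457) in the libraries labelled LIN28B knockout. With the replicate number as a block, STC2 fell by 1.36 in the libraries labelled LIN28B knockout, at an edgeR adjusted p of 0.0422.

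VLDLR (ENSGALG00000010166), the receptor that takes up yolk lipoproteins in the hen's oocyte, was the member without lower levels in the libraries labelled LIN28B knockout. It was at 9.22, 9.24 and 7.76 CPM in control, at 15.1, 15.7 and 14.8 CPM in LIN28A knockout and at 11.0, 13.2 and 8.82 CPM in the libraries labelled LIN28B knockout. LIN28A knockout libraries lay above all others and close together, also in replicate 3, while the libraries labelled LIN28B knockout overlapped with control. Means were 8.74 ± 0.849 CPM in control, 15.2 ± 0.494 CPM in LIN28A knockout and 11.0 ± 2.17 CPM in the libraries labelled LIN28B knockout (SD, n = 3). Against control the log2 difference was 0.80 ± 0.19 (SE; 95% interval 0.38 to 1.22; edgeR adjusted p 0.191) in LIN28A knockout and 0.33 ± 0.19 (edgeR adjusted p 0.636) in the libraries labelled LIN28B knockout.

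**Figure D1:**
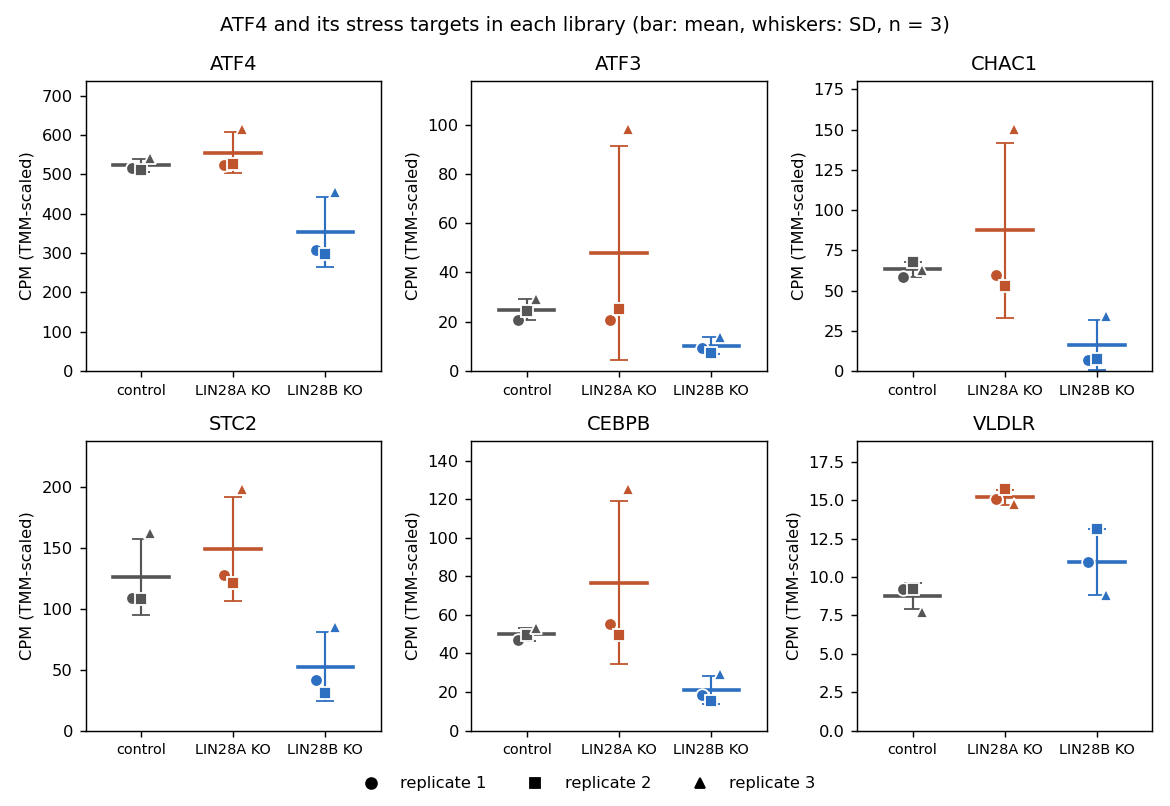
Level of each of the 6 genes (y axis, TMM-scaled CPM) in control, LIN28A knockout (KO) and LIN28B knockout libraries (x axis). Symbols are the 3 replicates, bars the mean and whiskers the SD. ATF4, ATF3, CHAC1, STC2 and CEBPB are lowest in the libraries labelled LIN28B knockout. LIN28A knockout replicate 3 is high for ATF3, CHAC1 and CEBPB, and for VLDLR all 3 LIN28A knockout libraries lie above every other library.

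In LIN28B knockout against control, 5 of the 6 members had a log2 difference below 0 and the exception was VLDLR. No member passed edgeR's adjusted p, where 0.0129% of 15475 genes did. An unadjusted p under 0.05 was reached by 5 members, all lower, against 4.42% of all tested genes lower at that level. The same 5 had no overlap of CPM with control, against 11.4% of tested genes lower without overlap. The median of the 6 differences was −1.25, beside −0.00 over all tested genes. DESeq2 called 1 member, STC2 (−1.26, adjusted p 0.0467), against 0.774% of its genes, and the fit with the replicate block also called STC2 alone among the members, against 0.155%. Without LIN28A knockout replicate 3, a library of neither group compared here, edgeR called ATF3 (adjusted p 0.0437) and CEBPB (adjusted p 0.0308), against 1.05% of tested genes. Without LIN28B knockout replicate 3 it called ATF4 (−0.79, edgeR adjusted p 0.0412), against 0.133%.

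In the authors' deposited table for this comparison, 4 of the 6 members had an adjusted p under 0.05, all lower, against 2.29% of its genes lower at that threshold. The values in the authors' deposited table were −0.57 for ATF4 (adjusted p 0.0427), −1.29 for ATF3 (0.000182), −1.27 for STC2 (0.00774) and −1.25 for CEBPB (4.12e-05). CHAC1, at −1.96 and an adjusted p of 0.113, and VLDLR, at 0.32 and 0.450, did not pass in the authors' deposited table. The fold changes of the authors' deposited table thus lay within 0.01 of those fitted here for ATF4, ATF3, STC2 and CEBPB, and the p-values differed. No source used here states the libraries and design behind the authors' p-values. The mean signal of ATF4 was 16493 in the authors' deposited table for LIN28A knockout and 12959 in that for LIN28B knockout. These tables therefore do not come from a single fit of the same libraries.

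Endothelial markers were mostly above control in the libraries labelled LIN28B knockout, and none passed edgeR's adjusted p. Of the 12 genes of this list 10 were tested, 8 with a difference above 0 and 2 below. Without overlap 4 were higher, against 11.6% of tested genes. Their summed level was 68.6 to 95.5 CPM in the libraries labelled LIN28B knockout and 25.6 to 58.9 CPM in control. Most of that sum came from PECAM1 and FLT4. FLT1, a VEGF receptor, was at 6.13, 8.09 and 6.61 CPM in the libraries labelled LIN28B knockout and at 2.12, 2.62 and 0.373 CPM in control, without overlap (2.02 ± 0.82, edgeR adjusted p 0.545). ROBO4 went the other way, at −1.65, with 0.0334 to 0.162 CPM (5, 3 and 1 counts in replicates 1, 2 and 3). KDR overlapped with control, and CDH5 was at 0 to 1.17 CPM against 0.0746 to 0.323 CPM in control. The summed levels of the fibroblast, erythroid, leukocyte and germ cell lists overlapped with control in this group. The part of the endothelial markers in the differences of the members was not tested.

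In LIN28A knockout against control, all 6 members had a difference above 0, with a median of 0.55 beside 0.02 over all tested genes. No member passed edgeR's adjusted p, where 0.00646% of genes did. Only VLDLR reached an unadjusted p under 0.05 in edgeR, against 5.49% of tested genes higher at that level, and only VLDLR had no overlap with control, against 8.19% of tested genes higher without overlap. DESeq2 called VLDLR (0.80, adjusted p 0.00548) and no other member, against 2.11% of its genes. In the authors' deposited table VLDLR was likewise the one member called, at 0.81 and an adjusted p of 0.000849, against 1.17% of genes higher.

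Several of the positive values in LIN28A knockout depended on replicate 3. Without that library the difference from control was −0.11 for ATF3, −0.16 for CHAC1, 0.070 for CEBPB, 0.0071 for ATF4 and −0.018 for STC2. For STC2 the value without it was set against a control replicate 3 that was itself high. With replicates 1 and 2 of every group alone, STC2 was 0.20 above control (edgeR adjusted p 0.0482), in a fit that called 30.1% of genes. Taken as log2 CPM relative to the mean of control, the median member was at 0.03, 0.00 and 1.01 in LIN28A knockout replicates 1, 2 and 3. The same replicate had the lowest LIN28A level of all libraries. In LIN28A knockout the summed germ cell markers were 4073 to 4597 CPM, below 5028 to 5114 CPM in control, the summed erythroid markers were 64.3 to 159 CPM, below 162 to 198 CPM in control, and the summed leukocyte markers were 23.8 to 29.4 CPM, above 15.4 to 20.6 CPM in control. The germ cell sum includes LIN28A itself and was led by DAZL, at 1341 to 1505 CPM in LIN28A knockout, while PRDM14, a pluripotency factor, lay above control without overlap (0.42 ± 0.09, edgeR adjusted p 0.151). The leukocyte sum was led by LCP1, an actin-bundling protein, at 11.6, 14.5 and 20.2 CPM against 9.41, 8.01 and 8.77 CPM in control (0.82 ± 0.23, edgeR adjusted p 0.243). PTPRC, the general leukocyte antigen, was at 3.85, 2.71 and 2.89 CPM against 4.64, 3.65 and 3.51 CPM. The erythroid sum was mostly TFRC, the transferrin receptor of many dividing cells, and the globin genes HBZ and HBE were at or near 0 in all libraries.

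Fibroblast markers split by library in LIN28A knockout. Of 16 tested, 8 were above and 8 below control, 6 were higher at an unadjusted p under 0.05 (5.49% of all tested genes were) and 3 without overlap (8.19%), and the list median relative to control was 0.75, 0.57 and −1.05 in replicates 1, 2 and 3. The summed level, mostly VIM and collagen, was 931 to 2369 CPM and overlapped with 1471 to 2167 CPM in control. COL6A1, a chain of collagen VI, was at 57.6, 66.3 and 13.6 CPM in LIN28A knockout, against 8.94, 9.08 and 8.39 CPM in control (2.38 ± 0.46, edgeR adjusted p 0.126). COL6A2, another chain, was at 53.4, 55.3 and 6.99 CPM in LIN28A knockout, so replicate 3 lay within control. FN1 was above control at 1.30 ± 0.36 (edgeR adjusted p 0.236) and VIM below it at −0.90 ± 0.23 (edgeR adjusted p 0.214), both without overlap. POSTN was high only in replicates 1 and 2, as was the endothelial gene ERG, and COL3A1 was highest in replicate 3. In replicate 3, where ATF3, CHAC1 and CEBPB were high, COL6A1 was lower than in replicates 1 and 2 but still above every control library.

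In LIN28A knockout KDR differed from control by −2.20 ± 0.57 (edgeR adjusted p 0.214), EGFL7 by −1.15, SLC4A1 by −0.53 and TAL1 by −0.11. In the libraries labelled LIN28B knockout PRDM14 differed by 0.42 ± 0.09 (edgeR adjusted p 0.325), TFAP2C by 0.90, DND1 by −0.30, COL6A2 by −2.44, LCP1 by −0.67 and TAL1 by 2.02, the last at under 1 CPM. The T and B cell genes CD3E and CXCR5 stayed under 3 CPM in all libraries. Between the knockouts COL6A1 (3.10 ± 0.48, edgeR adjusted p 0.0342), COL6A2 (4.64 ± 0.77, edgeR adjusted p 0.0399) and LCP1 (1.49 ± 0.23, edgeR adjusted p 0.0342) were higher in LIN28A knockout. The collagen calls ended without any 1 library other than LIN28A knockout replicate 3 (edgeR adjusted p 0.0525 to 0.242), that of LCP1 without any library other than a replicate 3 of the knockouts (0.0566 to 0.239), and all 3 ended in a fit of the 2 groups alone (0.151 to 0.160). The part of these markers in the values of the members was not tested.

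Between the knockouts, all 6 members were higher in LIN28A knockout than in the libraries labelled LIN28B knockout, and none of the 6 overlapped between the groups, against 11.7% of tested genes higher without overlap. The log2 difference was 0.65 ± 0.16 (SE) for ATF4, and the edgeR adjusted p was 0.0958. The difference was 2.24 ± 0.54 for ATF3, with the same edgeR adjusted p of 0.0958. For CEBPB it was 1.86 ± 0.36, with an edgeR adjusted p of 0.0591. CHAC1 differed by 2.43 ± 0.62 (edgeR adjusted p 0.105), STC2 by 1.51 ± 0.36 (edgeR adjusted p 0.0926) and VLDLR by 0.47 ± 0.19 (edgeR adjusted p 0.239). The median was 1.68, beside 0.00 over all tested genes.

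No member thus passed edgeR's adjusted p between the knockouts, where 0.517% of tested genes did. All 6 had an unadjusted p under 0.05, against 10% of tested genes higher at that level. DESeq2 called 5 members, all but VLDLR, with adjusted p from 2.21e-05 for CEBPB to 0.0227 for CHAC1, against 5.51% of its genes. Without LIN28A knockout replicate 3, edgeR called ATF3 (1.17, adjusted p 0.0448) and CEBPB (1.31, adjusted p 0.0181), against 3% of tested genes. Without LIN28B knockout replicate 3, edgeR called ATF4 (0.87, adjusted p 0.0178), CHAC1 (3.61, adjusted p 0.0181), STC2 (2.04, adjusted p 0.0223) and CEBPB (2.17, adjusted p 0.0412), against 1.45%. This comparison shares its libraries with those against control and adds no separate evidence to them.

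**Figure D2:**
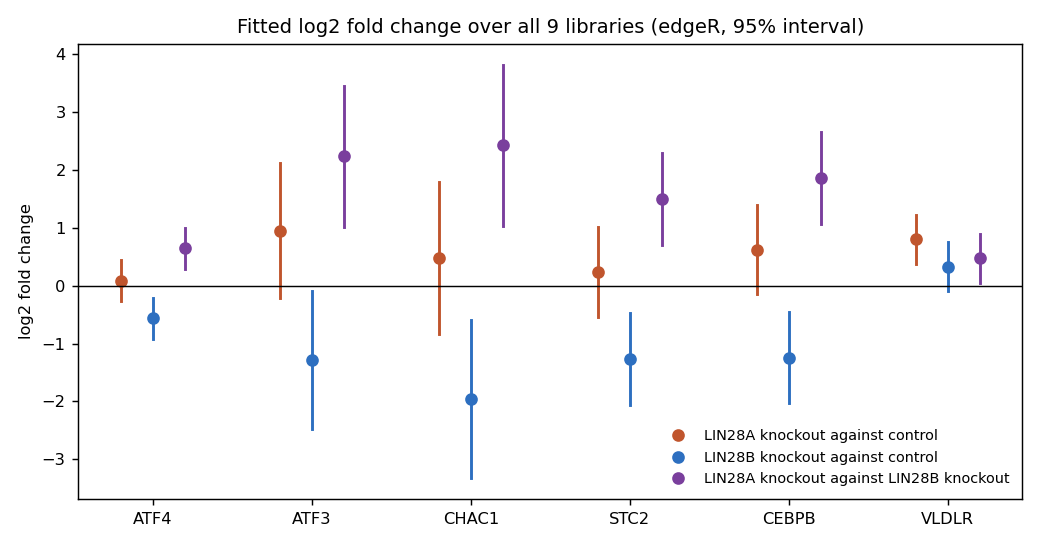
Fitted log2 fold change (y axis) of each of the 6 genes (x axis) in the 3 comparisons, with points for the estimate from edgeR over all 9 libraries and lines for its 95% interval. For LIN28B knockout against control the intervals of ATF4, ATF3, CHAC1, STC2 and CEBPB lie below 0, and for LIN28A knockout against control only that of VLDLR lies above 0.

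The members differed among themselves in how far libraries of 1 group spread. The highest library was 1.06-fold the lowest for ATF4 in control and 1.53-fold in the libraries labelled LIN28B knockout. For CHAC1 this ratio was 1.17 in control and 2.83 in LIN28A knockout, and it reached 5.12 in the libraries labelled LIN28B knockout. VLDLR in LIN28A knockout had a ratio of 1.07, the smallest of the 6 genes in that group. Measured as the root mean square difference of log2 CPM centred on each gene's mean over 9 libraries, STC2 and CEBPB (0.26) and ATF3 and CEBPB (0.27) were the pairs most alike, and CHAC1 and VLDLR (1.44) the least alike. On that measure ATF4 was 0.49 from STC2, 0.50 from VLDLR, 0.54 from CEBPB, 0.73 from ATF3 and 1.06 from CHAC1.

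The sensors and regulators upstream of ATF4 had median differences near 0. Of 15 tested genes of this list, 11 were below and 4 above control in the libraries labelled LIN28B knockout, none passed edgeR's adjusted p, and the median difference was −0.06. Without overlap 4 were lower in that group, against 11.4% of tested genes, and 1 was higher, against 11.6%. EIF2AK3, which encodes the endoplasmic reticulum kinase PERK, was at 23.9, 24.3 and 24.2 CPM in control and at 17.7, 15.9 and 14.7 CPM in the libraries labelled LIN28B knockout, a log2 difference of −0.58 ± 0.22 (SE) with an edgeR adjusted p of 0.524. It was at 18.6, 19.0 and 33.3 CPM in LIN28A knockout, so replicate 3 was again the high library. In LIN28A knockout 7 genes were above and 8 below control with a median of −0.03, and EIF2B3, a subunit of the exchange factor that reloads eIF2, differed by −0.26 ± 0.11 (edgeR adjusted p 0.455). The other subunits EIF2B2 and EIF2B5 differed by −0.20 and −0.18 there, and EIF2B1 by −0.21 in the libraries labelled LIN28B knockout. In those libraries EIF2B3 also lay below every control library, at 37.8, 39.5 and 43.7 CPM against 48.9, 44.3 and 48.8 CPM.

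Among 15 tested bZIP partners and relatives, 11 were below control in the libraries labelled LIN28B knockout, with a median of −0.19. In LIN28A knockout 14 were above control with a median of 0.20, and none passed edgeR's adjusted p in either group. The list median relative to control was −0.01, −0.05 and 0.52 in LIN28A knockout replicates 1, 2 and 3. JDP2, a repressor of AP-1 sites and relative of ATF3, was at 21.7, 19.6 and 32.2 CPM in control and at 6.45, 5.47 and 12.7 CPM in the libraries labelled LIN28B knockout. Its log2 difference was −1.58 ± 0.34 (SE; edgeR adjusted p 0.348), and with the replicate block it fell by 1.64 (edgeR adjusted p 0.0318). CEBPG, a C/EBP factor that pairs with ATF4, was at 64.9, 68.7 and 82.6 CPM in control and at 43.3, 37.8 and 52.2 CPM in the libraries labelled LIN28B knockout, a difference of −0.70 ± 0.23 (edgeR adjusted p 0.485). JUN was at 67.0, 63.7 and 67.4 CPM in control and at 56.8, 61.3 and 187 CPM in LIN28A knockout, where replicate 3 alone was high. NFE2L2, the oxidative stress factor, showed the same at 43.7, 39.0 and 78.4 CPM, against 37.0, 37.7 and 42.0 CPM in control.

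Paralogues of the members had differences of either sign. Of 8 tested, 3 were above and 5 below control in the libraries labelled LIN28B knockout. In LIN28A knockout 6 were above and 2 below, and none passed edgeR's adjusted p in either group. The list median relative to control was 0.00, 0.04 and 0.42 in LIN28A knockout replicates 1, 2 and 3. CHAC2, which like CHAC1 acts on glutathione, was at 10.5, 9.34 and 7.13 CPM in control and at 13.8, 15.2 and 11.9 CPM in the libraries labelled LIN28B knockout. Those 2 groups did not overlap and the log2 difference was 0.60 ± 0.22 (SE; edgeR adjusted p 0.502), opposite in sign to that of CHAC1. TRIB1, a pseudokinase relative of TRIB3, was at 1.05 to 2.09 CPM in control and differed by 0.70 in LIN28A knockout and by 0.75 in the libraries labelled LIN28B knockout. CEBPD differed by 0.26 and −0.12.

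A wider list of other ATF4 targets, mostly enzymes of amino acid synthesis, amino acid carriers and tRNA synthetases, but also JDP2 and CEBPG, lay mostly below control in the libraries labelled LIN28B knockout. Of 40 tested genes, 38 were below control and 2 (MAP1LC3B and XPOT) above, and the median difference was −0.44, beside −0.00 over all tested genes. None passed edgeR's adjusted p, 21 had an unadjusted p under 0.05 with a negative difference, against 4.42% of all tested genes, and 27 were lower without overlap, against 11.4%. DESeq2 called 5 of the list (0.774% of all its genes) and the replicate block 3 (0.155%). PYCR1, the last enzyme of proline synthesis, was at 361, 375 and 447 CPM in control and at 219, 179 and 281 CPM in the libraries labelled LIN28B knockout, a difference of −0.80 ± 0.18 (SE; edgeR adjusted p 0.348). With the replicate block PYCR1 fell by 0.82 (edgeR adjusted p 0.0422). HERPUD1, a membrane protein of endoplasmic reticulum degradation, was at 57.6, 59.7 and 65.5 CPM in control and at 43.1, 34.7 and 42.7 CPM in the libraries labelled LIN28B knockout, a difference of −0.60 ± 0.12 (edgeR adjusted p 0.291).

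SLC7A11, the cystine carrier that supplies glutathione synthesis, had the most negative value of the 40 and was picked out after its values were seen. It was at 5.17, 3.59 and 6.94 CPM in control, at 1.39, 1.74 and 6.99 CPM in LIN28A knockout and at 0.908, 0.501 and 1.07 CPM in the libraries labelled LIN28B knockout. LIN28A knockout replicates 1 and 2 were low and replicate 3 was at the level of control. The log2 difference from control was −2.65 ± 0.64 (SE; edgeR adjusted p 0.393) in the libraries labelled LIN28B knockout and −0.64 ± 0.59 (edgeR adjusted p 0.746) in LIN28A knockout.

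In LIN28A knockout 32 of the 40 were above control and 8 below with a median of 0.17, beside 0.02 over all tested genes, and none passed edgeR's adjusted p. Of the 3 list genes with the smallest p there, AKNA and MARS lay below control and SQSTM1, an autophagy receptor, above it. SQSTM1 was at 56.3, 59.9 and 96.0 CPM against 37.8, 43.2 and 41.4 CPM. DESeq2 called SQSTM1 (0.80, adjusted p 0.0207) and no other gene of the list there, against 2.11% of its genes. AKNA was at 15.0, 13.5 and 9.19 CPM against 22.8, 22.5 and 16.9 CPM (−0.72 ± 0.21, edgeR adjusted p 0.273). MARS, a methionyl-tRNA synthetase, was at 239, 222 and 238 CPM against 291, 284 and 268 CPM (−0.27 ± 0.09, edgeR adjusted p 0.314). MARS was also lower without overlap in the libraries labelled LIN28B knockout, by the same −0.27. The list median relative to control was −0.04, −0.02 and 0.46 in LIN28A knockout replicates 1, 2 and 3, and −0.49, −0.53 and −0.25 in the libraries labelled LIN28B knockout. Between the knockouts 33 of 40 were higher in LIN28A knockout with a median of 0.66, and 3 passed edgeR's adjusted p, against 0.517% of all tested genes. SQSTM1 had 56.3, 59.9 and 96.0 CPM in LIN28A knockout, against 31.5, 32.2 and 26.6 CPM in the libraries labelled LIN28B knockout. It was 1.23 ± 0.20 higher in LIN28A knockout (edgeR adjusted p 0.0399). VEGFA, a growth factor for blood vessels, had 20.1, 21.1 and 18.0 CPM in LIN28A knockout, against 8.53, 7.33 and 9.99 CPM in the libraries labelled LIN28B knockout, 1.19 ± 0.19 higher (edgeR adjusted p 0.0347). HERPUD1 was 0.87 ± 0.12 higher (edgeR adjusted p 0.0254). Leaving out any 1 library other than a replicate 3 ended all 3 calls (edgeR adjusted p 0.0682 to 0.239), and that of SQSTM1 also ended without control replicate 3 (0.0608) or LIN28B knockout replicate 3 (0.0524). A fit of only these 2 groups ended them too (edgeR adjusted p 0.138 to 0.154).

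**Figure D3:**
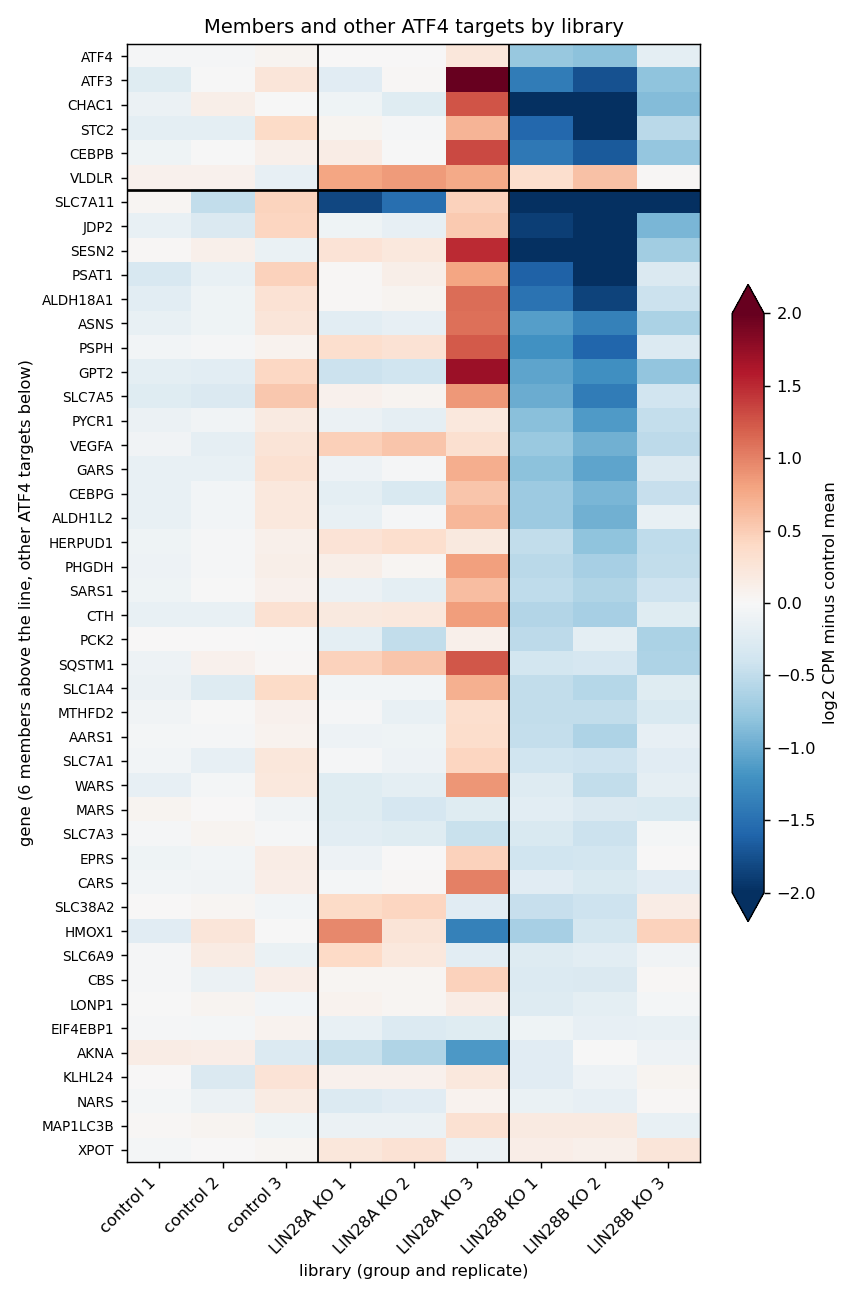
Log2 CPM minus the control mean (colour, limited to −2 and 2) of the 6 members above the line and 40 other ATF4 targets below it (y axis), in each of 9 libraries (x axis). The libraries labelled LIN28B knockout are mostly blue, least so in replicate 3, and LIN28A knockout replicate 3 is red for many of the genes that are near control in replicates 1 and 2.

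The XBP1 and ATF6 arm of the unfolded protein response, which raises chaperones of the endoplasmic reticulum, had a median difference nearer to 0. This list shares HERPUD1 with the other ATF4 targets. Of 19 tested genes, 17 were below control in the libraries labelled LIN28B knockout, with a median of −0.10, and none passed edgeR's adjusted p. Without overlap 4 were lower, against 11.4% of tested genes. HSPA5, the main chaperone of that compartment, had a log2 difference of 0.00 ± 0.14 (SE; 95% interval −0.31 to 0.31; edgeR adjusted p 0.997). XBP1 differed by −0.30 ± 0.13 (edgeR adjusted p 0.554). CALR, another chaperone, was at 441, 409 and 441 CPM there and at 394, 384 and 417 CPM in LIN28A knockout, both below the 505, 532 and 512 CPM of control (−0.26 and −0.38, edgeR adjusted p 0.488 and 0.176). In LIN28A knockout 11 were above and 8 below control with a median of 0.05, and none passed edgeR's adjusted p. Between the knockouts 14 of the 19 were higher in LIN28A knockout, and HERPUD1 alone passed edgeR's adjusted p, against 0.517% of tested genes.

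In the unscaled root mean square difference of centred log2 CPM, the size of differences counts as well as their shape. It was used to find the genes most like each member over the 9 libraries, among 9202 genes. For ATF4 these were YARS, a tyrosyl-tRNA synthetase (0.03), GLO1, a glyoxalase (0.09), and CDKN3 (0.09). YARS was at 130, 126 and 140 CPM in control, 129, 134 and 155 CPM in LIN28A knockout and 79.1, 73.3 and 111 CPM in the libraries labelled LIN28B knockout, which is the order and spread of ATF4. CHAC1 was nearest to SESN2, a stress-induced sestrin (0.40), ABHD8 (0.51) and JDP2 (0.60). For STC2 the nearest were JDP2 (0.13) and the amino acid synthesis enzymes PSAT1 (0.13) and ALDH18A1 (0.15). ATF3 was nearest to NDRG1 (0.21), EPDR1 (0.23) and SFMBT2 (0.24), and CEBPB to NDRG1 (0.11), ALDH18A1 (0.17) and PSPH (0.18). NDRG1 was at 83.3, 85.4 and 87.7 CPM in control, 91.5, 99.6 and 260 CPM in LIN28A knockout and 32.9, 28.1 and 50.9 CPM in the libraries labelled LIN28B knockout, with the same single high library.

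VLDLR had other neighbours: SMPDL3A (0.12), GAS6, a ligand of TAM receptors (0.12), and FKBP10, a collagen chaperone (0.12). SMPDL3A was at 38.3, 40.2 and 38.3 CPM in control, at 63.1, 71.2 and 70.5 CPM in LIN28A knockout and at 57.3, 55.4 and 44.1 CPM in the libraries labelled LIN28B knockout. Like VLDLR it was high in all 3 LIN28A knockout libraries. Genes were ranked on these same libraries, so the likeness is a description of them.

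**Figure D4:**
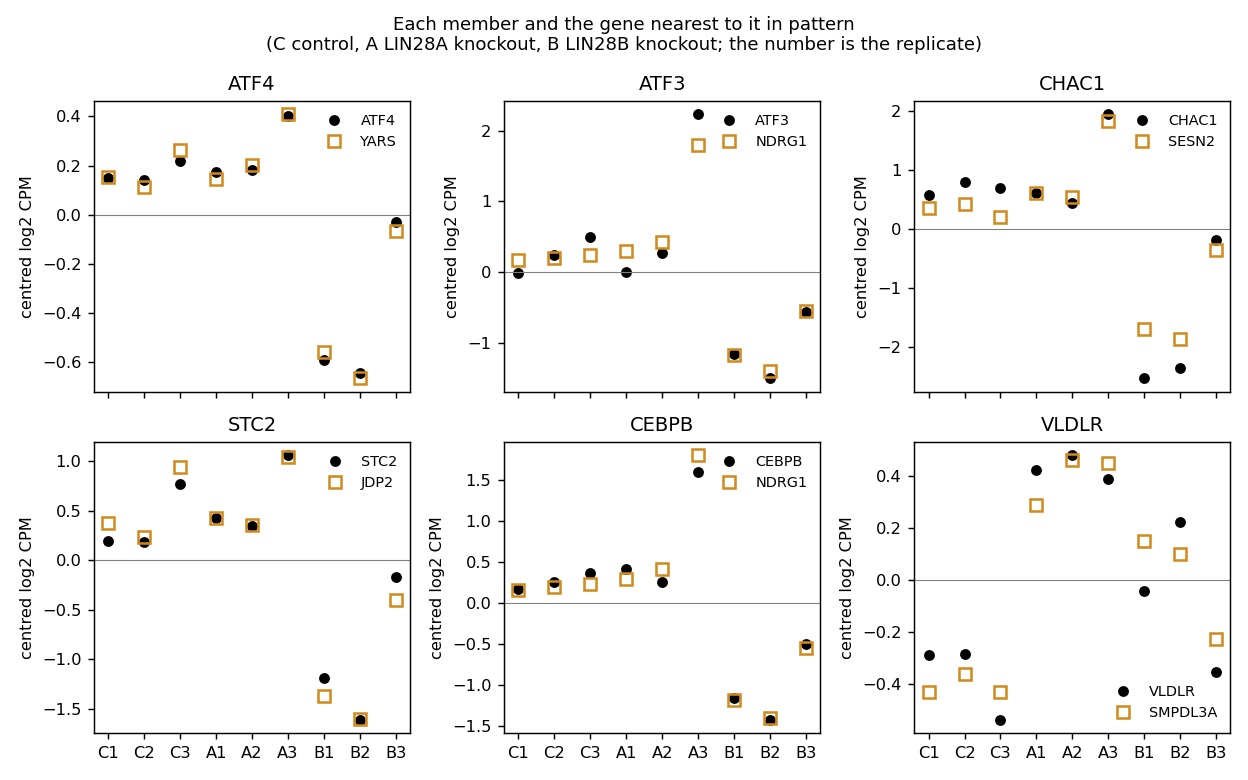
Log2 CPM centred on each gene's mean over the 9 libraries (y axis) for each member (filled circles) and the gene nearest to it (open squares) in each library (x axis; C control, A LIN28A knockout, B LIN28B knockout, with the replicate number). YARS lies on ATF4 in all libraries, and SMPDL3A, like VLDLR, is high in all 3 LIN28A knockout libraries.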

How the data were processed

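Poly(A) RNA was sequenced from 9 libraries of chicken PGCs, 3 per group, with groups and replicate numbers taken from the labels. The deposited counts are whole-number read counts per Ensembl gene, and the submitters' processing notes list, without roles, edgeR 3.38.4, DESeq2 1.36.0, featureCounts 2.0.3 and HISAT2 2.1.0 and the builds GRCg6a and galGal6. Libraries were made with a directional kit per the labels' protocols. No source used here gives the strand setting or annotation release, and overlapping genes or near-identical copies may share or lose reads. The log2 fold changes and the p-values of the authors' deposited tables are DESeq2 output for either knockout against control, per the file headers. The deposited mean signal of these tables was used only for ATF4, and their test statistic (a score) was not used. Symbols came from the deposited tables, which pair 13344 of 24356 identifiers with a symbol.

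Counts were fitted in edgeR 4.0.16 (R 4.3.3) with TMM scaling, filterByExpr defaults, the quasi-likelihood test on group over all 9 libraries, and Benjamini-Hochberg adjustment over 15475 tested genes, called at an adjusted p under 0.05. SE came from the F statistic. Libraries held 27.7 to 32.2 M counts, and members 203 to 17836 counts per library. The scripts were tested on simulated data. The members and gene lists were chosen with earlier results of these data known, and 1 list gene is not reported here. The text names the members, LIN28A, LIN28B, list genes called in any comparison, up to 3 genes of each list with the smallest p for either knockout against control, and the 3 genes most like each member in pattern (average log2 CPM of at least 3); other names were chosen after values were seen. Alternatives were DESeq2 1.42.0, other scalings and filters, the 2 groups alone, replicates 1 and 2 alone, a replicate block, and leaving out each library. Replicate numbers have no stated meaning. Deviations of same-numbered libraries from their group means correlated at 0.403, 0.258 and 0.391 between control and LIN28A knockout and at 0.394, 0.427 and 0.555 between control and LIN28B knockout, over 10151 genes, so the numbers were taken to pair libraries in these 2 comparisons. Replicates 1 and 2 lie close together, so the check mainly sets replicate 3 apart.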

Additional observations from a re-analysis of the deposited data

Results flagged for a closer look

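For ATF4, ATF3 and STC2, each LIN28A knockout library lay above the control library of the same number and each library labelled LIN28B knockout lay below it. These members were flagged for this sign pattern, and the share of all tested genes that show it was not counted. Replicate numbers have no stated meaning. Without LIN28A knockout replicate 3 the fitted difference of LIN28A knockout from control was −0.11 for ATF3 and −0.018 for STC2. The difference between the knockouts was 0.65 for ATF4, 2.24 for ATF3 and 1.51 for STC2 on the log2 scale. Tested over all 9 libraries it did not pass (edgeR adjusted p 0.0958, 0.0958 and 0.0926). The values above control in LIN28A knockout were as small as 0.02 for ATF4 and 0.01 for ATF3 in replicate 1, and the control libraries are shared by both contrasts.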

How the results depend on the processing

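Of 1604 values of named genes under the alternatives, 1409 kept their direction and their side of the threshold, 125 passed it only under the alternative, 59 no longer passed and 11 changed sign. In LIN28A knockout against control, leaving out 1 library gave −0.11 to 1.31 for ATF3, −0.16 to 0.73 for CHAC1, −0.018 to 0.46 for STC2 and −0.16 to 0.91 for JUN, with the changed sign in each case without LIN28A knockout replicate 3. With replicates 1 and 2 alone the difference was −0.17 for CHAC1 and −0.15 for JUN. TAL1, at under 1 CPM, ranged from −1.95 to 0.43 and was 0.51 with replicates 1 and 2 alone. In LIN28B knockout against control, TFRC ranged from −0.032 to 0.23 and SLC4A1 from −0.86 to 0.046. LIN28B transcript in its own group ranged from −0.054 to 0.17 when 1 library was left out, below 0 without control replicate 2 or LIN28B knockout replicate 2. With replicates 1 and 2 alone it was 0.23 (edgeR adjusted p 0.0330) and LIN28A in its group −0.43 (1.76e-06).

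Genes called against control numbered 1 in LIN28A knockout and 2 in LIN28B knockout, and 80 between the knockouts. In that order the counts were 333, 119 and 912 with DESeq2, and 4724, 4898 and 6196 with replicates 1 and 2 alone, which lie close together. Without a filter they were 5, 2 and 136, and with the 2 groups alone 0, 1 and 9. Leaving out 1 library gave 0 to 453, 0 to 166 and 0 to 474 in the same order of comparisons. Members called, 0 in each comparison, were 1, 1 and 5 with DESeq2, 2, 6 and 6 with replicates 1 and 2 alone, and 0, 0 to 2 and 0 to 4 without 1 library. Between the knockouts 1 member (CEBPB) was called with library totals only and 1 (CEBPB) without a filter.

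With the replicate block, genes called were 13, 24 and 890 and members called 0, 1 and 5. Between the knockouts the correlations of same-numbered libraries were lower than against control, at 0.130, 0.0873 and 0.124. The block was a single replicate term over all 9 libraries, so its fit paired the knockouts by number as well. Its p-values, also those against control, rest on that pairing. The block changed no other call of a member against control.

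The spread between libraries limits these comparisons at 3 libraries per group. Counting error was not measured apart from it and weighs more for genes with few counts. ROBO4, for example, had 11, 7 and 11 counts in control and 5, 3 and 1 in the libraries labelled LIN28B knockout.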

Other observations

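Hypoxia-induced genes, a list that shares VEGFA with the ATF4 targets, also had mostly negative differences in the libraries labelled LIN28B knockout. Of 18 tested genes, 14 were below control and 4 above, with a median of −0.25, and 1 passed edgeR's adjusted p, against 0.0129% of all tested genes. An unadjusted p under 0.05 with a negative difference was reached by 7, against 4.42% of all tested genes, and 7 were lower without overlap, against 11.4%. PFKFB3, an activator of glycolysis, was at 47.9, 52.4 and 46.5 CPM in control and at 23.8, 22.2 and 23.5 CPM in the libraries labelled LIN28B knockout, where it fell by 1.08 (edgeR adjusted p 0.0230). It was at 51.6, 51.7 and 56.1 CPM in LIN28A knockout. Its call was lost without any of the control libraries, without replicate 1 or 2 of either knockout (edgeR adjusted p 0.0711 to 0.307 over these 7), and in the fit of the 2 groups alone (0.0515). SLC2A1, a glucose transporter, differed by −0.50 ± 0.13 (SE; edgeR adjusted p 0.410) in the libraries labelled LIN28B knockout. In LIN28A knockout 11 of the 18 were above control with a median of 0.08, and none passed edgeR's adjusted p. At an unadjusted p under 0.05, 4 were higher (5.49% of all tested genes), and 6 were higher without overlap (8.19%). By either measure 1 was lower. P4HA2, a collagen prolyl hydroxylase, had a difference of 0.88 ± 0.18 there (edgeR adjusted p 0.126), EGLN3 of 0.62 and PDK1 of −0.30. Between the knockouts 14 of the 18 were higher in LIN28A knockout, 12 of them at an unadjusted p under 0.05 (10% of all tested genes). PFKFB3 and VEGFA passed edgeR's adjusted p, against 0.517%. The call of PFKFB3 ended without LIN28B knockout replicate 1 or 2 (edgeR adjusted p 0.0684 and 0.0678).

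Immediate early genes answer growth factors and handling within minutes. KLF6 (−0.63) and MYC (0.95) in LIN28A knockout and IER5 (−0.49) in the libraries labelled LIN28B knockout were among the smallest p of this list. EGR1 was high in replicates 1 and 2 of both knockouts and low in replicate 3, and SRF showed this in the libraries labelled LIN28B knockout. EGR1 was at 2.27, 3.07 and 1.75 CPM in control. LIN28A knockout libraries held 21.3, 22.0 and 1.10 CPM of it, and the libraries labelled LIN28B knockout 41.0, 35.8 and 1.47 CPM. SRF was at 163, 163 and 68.0 CPM in the libraries labelled LIN28B knockout and at 79.3, 80.6 and 59.4 CPM in control. None of the 12 tested genes of the list passed edgeR's adjusted p against control. At an unadjusted p under 0.05, 2 were higher and 1 was lower in LIN28A knockout, where 5.49% of all tested genes were higher at that level. In the libraries labelled LIN28B knockout 1 was lower at that level, against 4.42% of all tested genes. There 2 were higher at that level, and the share of all tested genes higher is not given here. Without overlap 4 of the 12 were lower in that group, against 11.4% of tested genes, and 0 were higher, against 11.6%.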
